A study of Homo sapiens with 16 samples.

Results

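The genes of sterol and fatty acid synthesis were followed through 72 h of vitamin D hormone in OVCAR3, an established human ovarian carcinoma line. The set held 31 genes, taken by symbol for their place in these pathways. On U133A arrays, 27 of them had at least 1 probe set assigned to exactly 1 gene, out of 11963 such genes on the array, and the probe set with the highest mean signal stood for each. CYP51A1 and FADS1 had probe sets shared with other genes only, FDFT1 and ACSL3 had no probe set with their name, and these 4 are not analysed here. Of the 27 genes, 26 lay above the filter on dim genes, which keeps the upper part of genes by mean level, and entered the test among 7178 genes. MVD, mevalonate diphosphate decarboxylase, lay below the filter with a mean signal between 25.3 and 45.1 in the 4 groups.

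Cells received ethanol vehicle, or 1,25(OH)2D3, the active vitamin D hormone, at a labelled 0.1 pM for 8, 24 or 72 h, with 3 U133A arrays for each of the 4 groups. The hormone was added at staggered times so that all cultures were harvested together after the same exposure to ethanol, and 3 independent experiments were made. An earlier set of 4 U95 arrays held 1 sample for each time. All cells were grown with fetal bovine serum, which supplies lipoprotein cholesterol, and with bovine insulin. OVCAR3 is a single line, and the labels state no other clone or donor.

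Animal cells build cholesterol from acetyl-CoA through mevalonate, farnesyl diphosphate, squalene and lanosterol. The transcription factors SREBF1 and SREBF2, which encode the SREBP proteins, switch on most of these genes when membrane sterols are low, and INSIG1 holds the SREBP escort in the endoplasmic reticulum when sterols are high. SREBF1 also drives fatty acid synthesis from citrate through ACLY, ACACA and FASN, and chain desaturation by SCD and FADS2. The pathway touches vitamin D itself, since the substrate of DHCR7, the last reductase of cholesterol synthesis, is the sterol from which skin makes vitamin D3.

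All 10 markers of the ovarian carcinoma line were above the filter, among them PAX8, with a mean signal between 6098 and 7881 in the 4 groups, and EPCAM, between 4564 and 5483. Of these 10, WT1, CDH1, KRT7, KRT18 and PAX8 passed the limma test in at least 1 comparison. Over all genes tested, the share that passed was taken for single comparisons, and was highest at 72 h against vehicle, 6.84%. Mean signals in vehicle and at 72 h were 2095 and 4353 for WT1, 2310 and 3726 for CDH1, and 4529 and 6361 for KRT7. They were 13463 and 10366 for KRT18, and 7881 and 6913 for PAX8. The part of these changes in the results for lipid genes was not tested. None of the 4 leukocyte, 5 endothelial and 3 adipocyte markers measured lay above the filter. Of 6 fibroblast markers, COL1A1 and DCN did, and 0 of these 2 passed the test in any comparison. The median signal of the arrays ran from 168 to 196, and any array correlated with another at 0.959 to 0.978 over log2 values. CYP24A1, the enzyme that breaks down the hormone and its best known target gene, averaged 7430 ± 1407 at 72 h and 129 ± 103 in vehicle (SD, n = 3 each; adjusted p = 1.3e-08 with limma).

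TM7SF2 was the member that rose. As in any bulk sample, more or fewer cells of a type and more or less RNA per cell cannot be told apart here. TM7SF2 encodes a sterol reductase of the endoplasmic reticulum that acts on intermediates between lanosterol and cholesterol. Its signal was 928, 1071 and 1073 in vehicle, 873, 1072 and 879.9 at 8 h, 1305, 1446 and 1015 at 24 h, and 2487, 1891 and 1480 at 72 h, in the order of replicates 1 to 3. All 3 arrays at 72 h lay above all arrays of the other groups, and replicate 1 was the highest of them. At 24 h, replicates 1 and 2 lay above the vehicle range and replicate 3 within it. The mean was 1953 ± 507 at 72 h and 1024 ± 83.3 in vehicle (SD, n = 3 each), a fold of 1.86 on values with the 10th percentile of all signals, 15.8, added. That is a log2 change of 0.89 (SE 0.17, 95% interval 0.53 to 1.25, limma adjusted p = 0.0032 over 7178 genes). Against 8 h, the log2 change at 72 h was 1.01 (95% interval 0.66 to 1.37, limma adjusted p = 0.0033). Against 24 h it was 0.61 (95% interval 0.26 to 0.97) and did not pass (limma adjusted p = 0.21). The change at 24 h against vehicle, 0.28, did not pass either (limma adjusted p = 0.51). On the U95 arrays, each a single sample, the TM7SF2 signal was 2681 in vehicle, 2448 at 8 h, 2971 at 24 h and 4511 at 72 h, and again the 72 h array was the highest. The array has 1 probe set for this gene, so no other probe set bears on it.

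**Figure D1:**
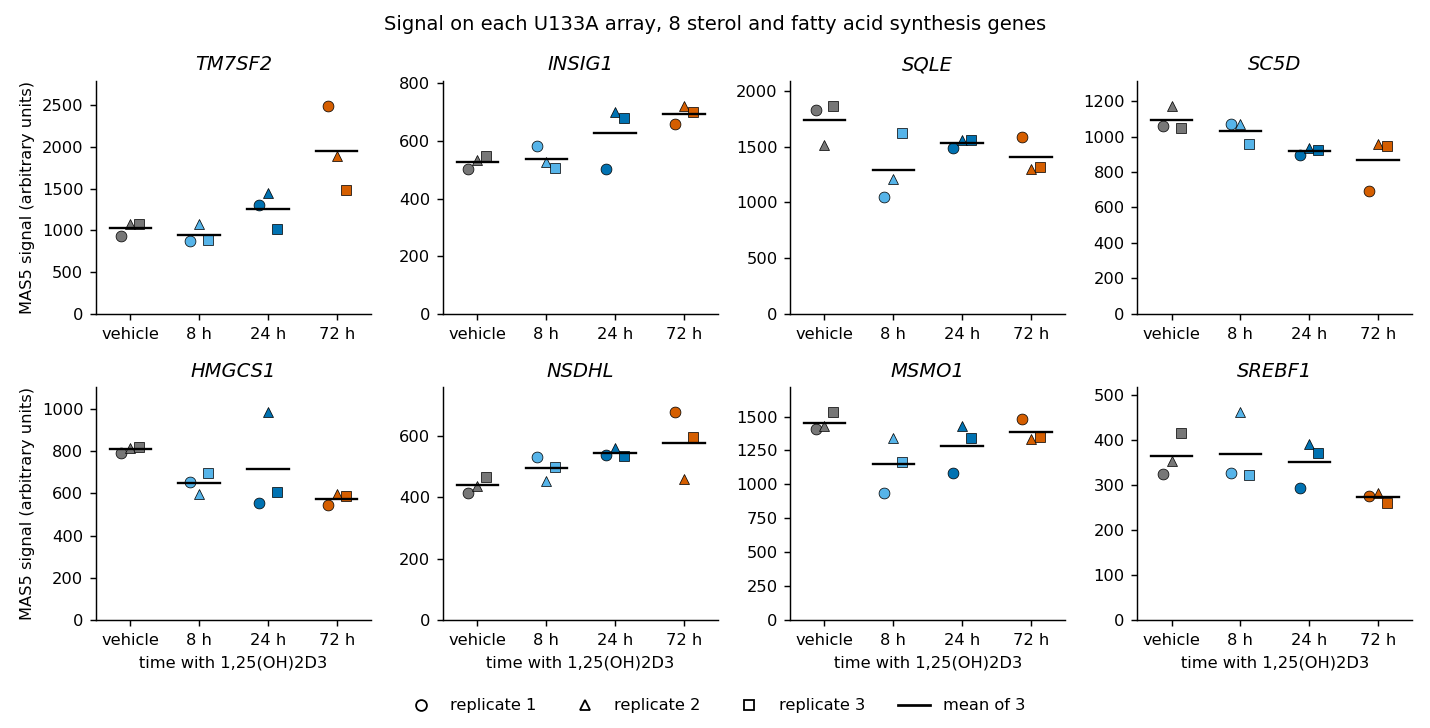
Signal of 8 genes on each of the 12 U133A arrays (vertical axis, MAS5 signal in arbitrary units, starting at 0) by group (horizontal axis, vehicle and 8, 24 and 72 h); point shape marks the replicate and the black line the mean of 3. TM7SF2 at 72 h runs from 1480 to 2487, above every array of the other groups, and the 24 h array of replicate 2 stands apart for HMGCS1 at 982.

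Promoter windows from RefSeq on assembly GRCh38.p14, which run from 250 bases before a gene's start to 50 after it, were matched by symbol for 24 of the 27 genes, in 37 windows. ACAT2, SQLE and FASN had none. The 250 bases before the start are shown for TM7SF2, the member that rose, for SLC25A1, the one gene that rose in the other lists of the pathway, and for HMGCS1, which had the lowest log2 change at 72 h apart from the widely scattered ACACA. HMGCS1 has another annotated start, whose window is not shown. Capitals mark CCAAT in either orientation, the box bound by the factor NF-Y, which SREBP proteins need as a partner at many promoters.
TM7SF2, chr11:65111622-65111871, plus strand: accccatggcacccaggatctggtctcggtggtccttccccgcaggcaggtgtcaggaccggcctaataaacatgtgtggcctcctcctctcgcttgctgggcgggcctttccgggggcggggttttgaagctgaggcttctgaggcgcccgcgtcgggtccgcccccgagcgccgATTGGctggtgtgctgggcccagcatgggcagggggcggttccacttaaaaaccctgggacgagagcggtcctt
SLC25A1, chr22:19178737-19178986, minus strand: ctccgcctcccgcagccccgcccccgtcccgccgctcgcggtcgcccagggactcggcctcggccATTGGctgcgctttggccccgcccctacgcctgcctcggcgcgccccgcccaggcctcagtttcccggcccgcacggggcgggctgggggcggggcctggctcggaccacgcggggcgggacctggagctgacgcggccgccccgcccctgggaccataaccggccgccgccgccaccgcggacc
HMGCS1, chr5:43313413-43313662, minus strand: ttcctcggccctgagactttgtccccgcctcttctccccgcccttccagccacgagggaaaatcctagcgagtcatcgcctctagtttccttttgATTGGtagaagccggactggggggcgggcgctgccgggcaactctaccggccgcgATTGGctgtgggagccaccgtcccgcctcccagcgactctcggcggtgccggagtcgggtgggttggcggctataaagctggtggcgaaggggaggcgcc
TM7SF2 and SLC25A1 each had 1 CCAAT box in the window and HMGCS1 had 2. The window of the other HMGCS1 start held no CCAAT. Over the windows of the pathway, CCAAT was found on either strand in 24 of 37 (64.9%), against 34.6% of all 35116 RefSeq promoter windows of the same length. GGGCGG, the box of the factor Sp1, was found in 30 of 37 windows (81.1%), against 45% of all. The consensus sterol response element TCACNCCAC was found in 2 of 37 windows, those of SREBF2 and ACSL1, against 1.13% of all, and in none of the 3 shown. CACGTG, an E-box, was found in 4 of 37 windows, against 7.26% of all, and in none of the 3 shown. These matches describe letters in the windows, and binding was not measured.

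After 8 h, 0 of the 26 genes passed the limma test, where 0.78% of all genes tested did. At an unadjusted p under 0.05, 4 genes did, namely SQLE, MSMO1, HSD17B7 and SREBF2, all of them lower than in vehicle, where 6.38% of all genes reached that level. The log2 change was below 0 for 19 of 26 genes, where 51.2% of all genes tested were below 0, and the median was -0.09, against -0.004 over all genes tested. For 5 genes, HMGCS1, PMVK, MSMO1, HSD17B7 and ACACA, all 3 arrays at 8 h lay below all 3 vehicle arrays, where 6.95% of all genes tested did so. For 0 genes did they lie above, where 6.52% of all genes tested did.

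SQLE, squalene epoxidase, makes the first oxygenated sterol precursor and is a control point of the pathway. Its signal was 1832, 1513 and 1865 in vehicle, 1047, 1213 and 1619 at 8 h, 1483, 1562 and 1561 at 24 h, and 1587, 1303 and 1321 at 72 h. Replicate 3 at 8 h lay within the vehicle range, and the other 2 arrays at 8 h lay below it. The log2 change at 8 h was -0.44 (95% interval -0.74 to -0.14) and did not pass (limma adjusted p = 0.31). With 1 array left out it ran from -0.61 to -0.30. It passed only without 8 h replicate 3 (-0.61, limma adjusted p = 0.043), and the highest adjusted p with another array left out was 0.86. On averaging the probe sets of SQLE it was -0.23 (limma adjusted p = 0.94). The other 2 probe sets for SQLE had -0.18 and -0.08 at 8 h.

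MSMO1, NSDHL and HSD17B7 encode the enzymes that together remove methyl groups from sterol intermediates, and are described together. MSMO1, the oxidase, had 1407, 1429 and 1530 in vehicle, 937, 1344 and 1168 at 8 h, 1086, 1432 and 1339 at 24 h, and 1485, 1332 and 1352 at 72 h. Its 3 arrays at 8 h lay below the vehicle range without overlap, while the 24 h and 72 h arrays overlapped with it. The log2 change at 8 h was -0.35 (95% interval -0.63 to -0.07, limma adjusted p = 0.46). HSD17B7, a ketoreductase, had -0.31 at 8 h (95% interval -0.57 to -0.05, limma adjusted p = 0.55), on a probe set of the class that can also bind near-identical transcripts. NSDHL, the dehydrogenase, had 415, 436 and 467 in vehicle, 532, 452 and 497 at 8 h, 537, 562 and 534 at 24 h, and 676, 459 and 595 at 72 h. The 24 h arrays of NSDHL lay above the vehicle range, and at 72 h replicate 2 lay within it. The log2 change of NSDHL at 72 h was 0.37 (95% interval 0.08 to 0.65) and did not pass (limma adjusted p = 0.13). With 1 array left out it ran from 0.25 to 0.52. It passed only without 72 h replicate 2 (0.52, limma adjusted p = 0.024), and the highest adjusted p with another array left out was 0.38. Its other probe set had 0.34.

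After 24 h, 0 of 26 genes passed the limma test, where 4.08% of all genes tested did, and 1 gene, NSDHL, had an unadjusted p under 0.05, where 14.4% did. The log2 change was below 0 for 18 of 26, where 53.3% of all genes tested were below 0, with a median of -0.08 against -0.02 over all genes tested. ME1 and SC5D lay wholly below the vehicle arrays, where 11.2% of all genes tested did so, and NSDHL wholly above, where 9.35% did. Both shares of members are near or under those of all genes.

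After 72 h, TM7SF2 alone passed, 1 of 26 genes, where 6.84% of all genes tested did. With an unadjusted p under 0.05 there were 8 genes, TM7SF2, INSIG1 and NSDHL higher and HMGCS1, SC5D, SQLE, SREBF1 and SCD lower, where 20.1% of all genes tested reached that level. Of the 26, 16 had a log2 change below 0, where 52.3% of all genes tested did, and the median was -0.11, against -0.01 over all genes tested. The comparisons at 8, 24 and 72 h share the same vehicle arrays, so their medians are not separate evidence. Taken array by array, relative to the vehicle mean, the median of the 26 genes ran from -0.04 to 0.06 in vehicle. With hormone it ran from -0.16 to -0.003. HMGCS1, SC5D, SREBF1 and ME1 lay wholly below the vehicle arrays, where 12.7% of all genes tested did, and INSIG1 and TM7SF2 wholly above, where 11.7% did. In the F test of any time against vehicle, TM7SF2 passed (adjusted p = 0.0043), 1 of 26, where 5.21% of all genes tested did.

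**Figure D2:**
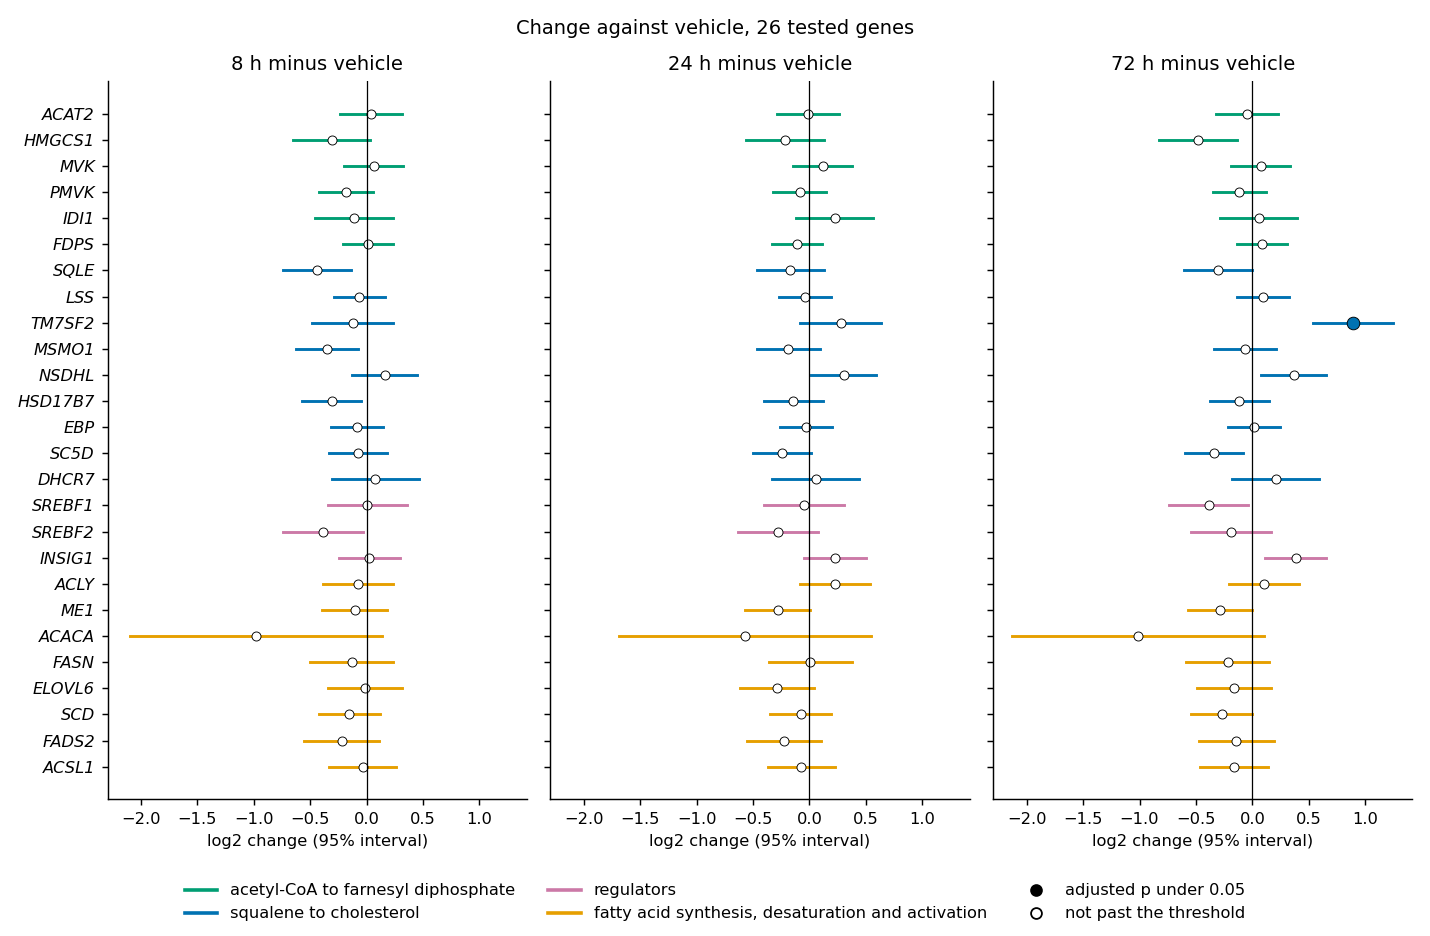
Log2 change against vehicle (horizontal axis) of the 26 tested genes (vertical axis, coloured by role) at 8, 24 and 72 h, as the limma estimate with its 95% interval; filled points passed at an adjusted p under 0.05. TM7SF2 at 72 h, at 0.89, is the one filled point, and the intervals of ACACA are the widest.

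Among the 6 tested genes from acetyl-CoA to farnesyl diphosphate, HMGCS1 had the largest differences from vehicle at 8 h and 72 h. At 24 h IDI1 had the largest, 0.22 on the log2 scale, close in size to -0.22 for HMGCS1. The other IDI1 probe set had -0.09 at 24 h, and the U95 ratio of IDI1 was -0.13. HMGCS1 encodes the cytosolic synthase that makes HMG-CoA, the substrate of mevalonate production. Its signal was 792, 812 and 818 in vehicle, 654, 598 and 695 at 8 h, 556, 982 and 605 at 24 h, and 543, 596 and 586 at 72 h. All arrays with hormone lay below the vehicle range except 24 h replicate 2, which lay above it. The mean was 575 ± 27.8 at 72 h and 807 ± 13.7 in vehicle (SD, n = 3 each), a log2 change of -0.48 (95% interval -0.82 to -0.13) that did not pass (limma adjusted p = 0.098). The groups share 1 estimate of the spread, and without 24 h replicate 2 HMGCS1 had -0.48 at 72 h and passed (adjusted p = 0.0095), and it also passed at 24 h. With any other single array left out, the change of HMGCS1 at 72 h did not pass (highest limma adjusted p = 0.23).

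The other probe set of HMGCS1 had 552, 483 and 498 in vehicle, 349, 438 and 438 at 8 h, 414, 374 and 399 at 24 h, and 288, 434 and 451 at 72 h. Every array with hormone lay below every vehicle array on that probe set, 24 h replicate 2 included. Its log2 changes were -0.32, -0.36 and -0.40 at 8, 24 and 72 h. ACAT2, which condenses acetyl-CoA, MVK and PMVK, the mevalonate kinases, IDI1, the isopentenyl isomerase, and FDPS, farnesyl diphosphate synthase, had log2 changes between -0.12 and 0.09 at 72 h. The 2 probe sets of IDI1, of the class that can also bind near-identical transcripts, had 0.06 and -0.35 at that time.

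Of the 9 tested genes from squalene to cholesterol, 7 had a log2 change below 0 at 8 h and 4 of 9 at 72 h. Of all genes tested, 51.2% and 52.3% did. SC5D, a sterol desaturase of the last steps, had 1058, 1172 and 1045 in vehicle, 1070.5, 1072 and 955 at 8 h, 898, 936 and 924 at 24 h, and 695, 957 and 945 at 72 h. The 24 h and 72 h arrays lay below the vehicle range, and replicate 1 was the lowest at 72 h. The log2 change at 72 h was -0.34 (95% interval -0.60 to -0.09) and did not pass (limma adjusted p = 0.11). LSS, which closes squalene epoxide into lanosterol, EBP, a sterol isomerase, and DHCR7 had 0.10, 0.01 and 0.20 at 72 h, with intervals that include 0. LSS had -0.26 on averaging its 3 probe sets, of which 2 lay under the filter, and DHCR7 ran from 0.089 to 0.35 with 1 array left out.

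None of the 3 regulators passed at 72 h, where 6.84% of all genes tested did. SREBF1 and INSIG1 had an unadjusted p under 0.05, where 20.1% of all genes tested did. INSIG1 had 504, 533 and 548 in vehicle, 583, 525 and 507 at 8 h, 503, 699 and 679.7 at 24 h, and 659, 721 and 700.2 at 72 h. The 72 h arrays lay above the vehicle range without overlap, and at 24 h replicate 1 lay below it. The log2 change of INSIG1 at 72 h was 0.38 (95% interval 0.11 to 0.65) and did not pass (limma adjusted p = 0.093). The other 2 INSIG1 probe sets had -0.04 and 0.04 at 72 h, and the U95 ratio was -0.19, so the higher signal rests on 1 probe set. SREBF1 had 324, 353 and 416 in vehicle, 326, 461 and 321 at 8 h, 293, 391 and 372 at 24 h, and 277, 283 and 260.3 at 72 h. The 72 h arrays lay below all arrays of the other groups. The log2 change at 72 h was -0.39 (95% interval -0.74 to -0.03, limma adjusted p = 0.20), and the U95 ratio was -0.54. SREBF2 had its lowest log2 change at 8 h, -0.38 (95% interval -0.74 to -0.03, limma adjusted p = 0.68), and -0.29 on its other probe set.

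In the fatty acid branch, 8 of 8 tested genes had a log2 change below 0 at 8 h, 6 at 24 h and 7 at 72 h. Of all genes tested, 51.2%, 53.3% and 52.3% did. At 8 h the changes of ELOVL6 (-0.01) and ACSL1 (-0.03) were small, and FADS2 and ACSL1 lay above 0 on U95. The limma test was passed by 0 of the branch at any of these times, where 0.78%, 4.08% and 6.84% of all genes tested passed. SCD at 72 h alone had an unadjusted p under 0.05, where 20.1% of all genes tested did at that time. At 72 h the median of the branch was -0.19, with ACLY, which makes cytosolic acetyl-CoA from citrate, as the one gene above 0 (0.10). The other ACLY probe sets, both above the filter, had 0.61 and -0.06 at 72 h, and 0.35 and -0.09 at 8 h. SCD, stearoyl-CoA desaturase, had -0.27 (95% interval -0.54 to -0.00, limma adjusted p = 0.24), and its 4 probe sets ran from -0.43 to -0.10. FASN, the fatty acid synthase, had -0.22, the elongase ELOVL6 -0.16, the desaturase FADS2 -0.14 and the acyl-CoA synthetase ACSL1 -0.16. FASN ran from -0.33 without vehicle replicate 2 to -0.04 without 72 h replicate 2. ME1, the malic enzyme that supplies reducing power for fatty acid synthesis, had 1070, 1003 and 982 in vehicle, 961, 1079 and 811 at 8 h, 875, 706 and 938 at 24 h, and 823, 953 and 732 at 72 h. The 24 h and 72 h arrays of ME1 lay below the vehicle range, and the change at 72 h was -0.29 on the log2 scale (limma adjusted p = 0.25), with -0.31 on another probe set above the filter.

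ACACA, acetyl-CoA carboxylase, had the lowest log2 changes of the set and the widest spread between replicates. Its signal was 530.4, 352 and 305 in vehicle, 245, 112 and 237 at 8 h, 579, 224 and 123 at 24 h, and 482, 112 and 108 at 72 h. Replicate 1 was the highest array in each of the 4 groups, and at 24 h and 72 h the other 2 arrays lay below the vehicle range. The mean was 234 ± 215 at 72 h and 396 ± 119 in vehicle (SD, n = 3 each), a log2 change of -1.01 (95% interval -2.13 to 0.11, limma adjusted p = 0.30). It was -1.67 without 72 h replicate 1 (adjusted p = 0.061). The other ACACA probe set had -0.33 at 72 h.

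**Figure D3:**
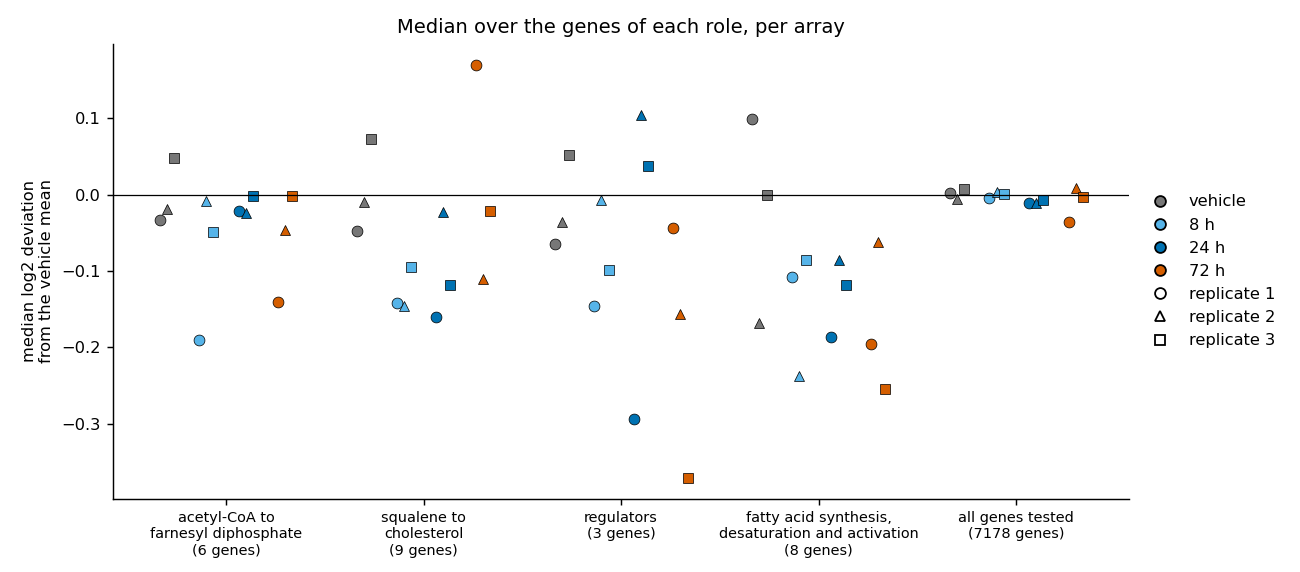
Median over the genes of each role of the log2 deviation from the vehicle mean (vertical axis), for each of the 12 U133A arrays; groups of points are the 4 roles and, at the right, all 7178 genes tested, colour marks the time and shape the replicate. The array medians of all genes lie between -0.04 and 0.01, and those of the fatty acid branch with hormone all lie below 0, while vehicle replicate 2 lies at -0.17, below 5 of those 9.

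The intervals bound what the probe set that stood for each gene could show. At 8 h and at 24 h, the 95% interval of 25 of the 26 genes lay wholly between log2 changes of -1 and 1, and at 72 h that of 24 did. The exceptions were ACACA at each time and TM7SF2 at 72 h. Other probe sets of a gene can lie outside these intervals. At 8 h another SCD probe set above the filter had -1.02, while the rest of SCD had -0.15, -0.21 and -0.21. The median half-width of the intervals was 0.29 on the log2 scale. From 8 to 24 h, 0 of 26 genes passed the limma test, where 0.599% of all genes tested did, and 1, TM7SF2, had an unadjusted p under 0.05, where 8.26% did. From 24 to 72 h, 0 passed, where 0.167% of all genes tested did, and again TM7SF2 alone had an unadjusted p under 0.05, where 11.7% did. From 8 to 72 h, 1 passed, where 2.49% of all genes tested did. At an unadjusted p under 0.05 there were 5, TM7SF2, INSIG1 and MSMO1 higher at 72 h and SC5D and SREBF1 lower, where 14.1% of all genes tested reached that level.

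The U95 arrays carried 25 of the 26 genes. At 8 h, 19 of 25 U95 ratios had the sign of the U133A change, 18 of 25 at 24 h and 16 of 25 at 72 h (76%, 72% and 64%). ACSL1 lay under the filter on U95. Over the 4167 genes that pass the filters of U133A and U95 alike the shares were 57.6%, 60.3% and 64.7%. The median U95 log2 ratio of the 25 genes was -0.13, -0.07 and -0.13 at the 3 times, against -0.01, -0.02 and -0.04 for the 4167 genes. HMGCS1 had U95 signals of 427 in vehicle, 215 at 8 h, 169 at 24 h and 266 at 72 h, and SC5D 417, 387, 221 and 249.6. For both genes the vehicle array was the highest. FADS2 of the fatty acid branch had U95 ratios of 0.25, 0.32 and 0.30 at the 3 times, opposite in sign to U133A each time. At 8 h ACSL1 had 0.30 on U95, and the rest of the branch lay below 0. NSDHL and INSIG1, higher at 72 h on U133A without passing, had U95 ratios of -0.05 and -0.19. With 1 array a time, no test was made.

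**Figure D4:**
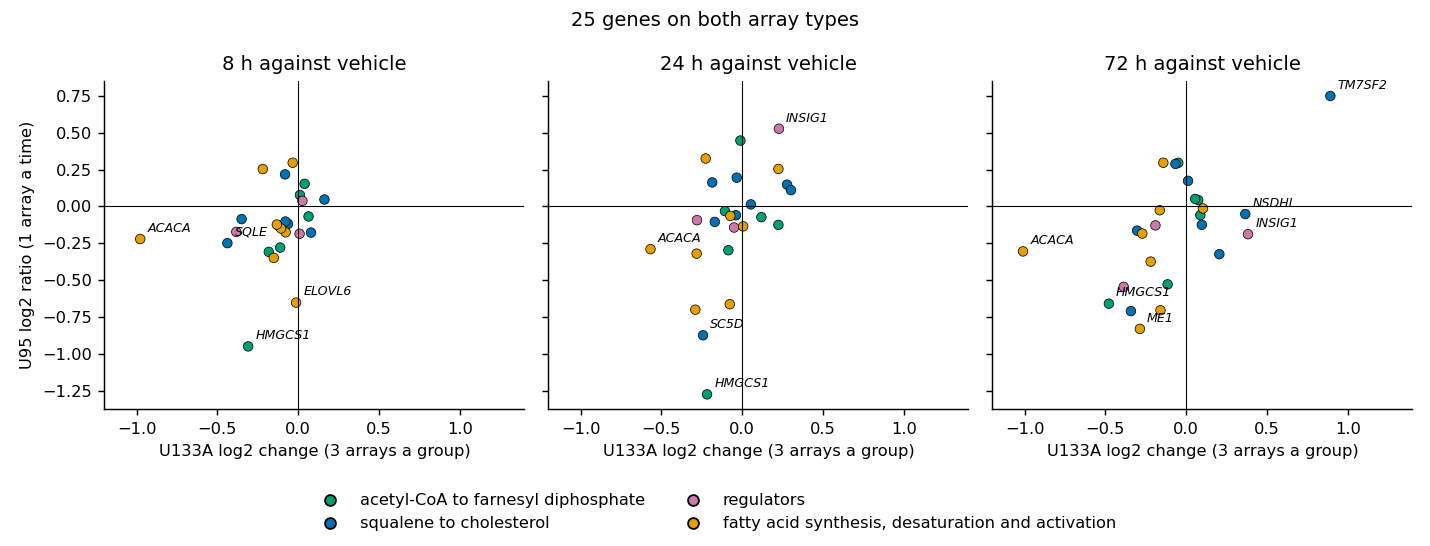
U95 log2 ratio to the vehicle array (vertical axis, 1 array a time) against the U133A log2 change (horizontal axis, 3 arrays a group) for the 25 genes on both array types, coloured by role, at 8, 24 and 72 h. TM7SF2 at 72 h lies at 0.89 on U133A and 0.75 on U95, and HMGCS1 lies below 0 on both types at each time.

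Other genes of the pathway were taken from 3 lists. For the sterol pathway and its control, 14 genes were tested, among them SCAP, the SREBP escort, and its processing proteases MBTPS1 and MBTPS2. Against vehicle at 8, 24 and 72 h, 0 of the 14 passed the limma test, where 0.78%, 4.08% and 6.84% of all genes tested did. An unadjusted p under 0.05 was reached by 0 of them at these times, where 6.38%, 14.4% and 20.1% of all genes tested reached it. The lowest F test p values there belonged to ERLIN1 (log2 change -0.14 at 72 h), ACAT1 (0.17 at 24 h), ERLIN2 (-0.28 at 72 h) and MBTPS1 (0.24 at 24 h). For sterol efflux and the oxysterol receptors, 7 genes were tested. Of these, 0 passed the limma test against vehicle at 8, 24 or 72 h, where 0.78%, 4.08% and 6.84% of all genes tested did. At an unadjusted p under 0.05 there were 0 at 8 h, 1 at 24 h and 2 at 72 h, where 6.38%, 14.4% and 20.1% of all genes tested reached that level. The receptor partner RXRA had -0.40 at 24 h (limma adjusted p = 0.14), apolipoprotein APOE 0.36 at 72 h (adjusted p = 0.080, and 0.047 on averaging its probe sets), MYLIP -1.03 at 72 h (adjusted p = 0.21, with 1 of its 3 arrays at 28.8 and the others at 187 and 227) and LPCAT3 0.31 at 72 h.

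Of 14 tested genes of fatty acid supply and use, 1 rose and 0 fell at 72 h, where 6.84% of all genes tested passed, so the count says nothing particular of the list. The one that rose was SLC25A1, the mitochondrial carrier that exports the citrate from which ACLY makes acetyl-CoA. Its signal was 1002, 1021 and 1205 in vehicle, 833, 841 and 1087 at 8 h, 1099.8, 1180.1 and 1114 at 24 h, and 1943, 1241 and 1601 at 72 h. The 72 h arrays lay above all others, with replicate 2 close to the highest vehicle array. The log2 change was 0.54 at 72 h against vehicle (95% interval 0.23 to 0.86, limma adjusted p = 0.037) and 0.77 at 72 h against 8 h (adjusted p = 0.0094). This call against vehicle was lost on leaving out 72 h replicate 1 (adjusted p = 0.16) or 3 (0.085), and likewise vehicle replicate 1 (0.14) or 2 (0.12). It was also lost with median centring, no filter or no trend in the variance (adjusted p = 0.056, 0.064 and 0.068). The U95 signals of SLC25A1 were 3757 in vehicle, 3660.3 at 8 h, 3919 at 24 h and 5141 at 72 h. IDH1 had 0.27 at 24 h, and the lipin genes LPIN1 and LPIN2 -0.38 and 0.29 at 8 h, none of them past the test.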

How the data were processed

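Total RNA was measured on Affymetrix U133A arrays (12 samples) and U95 arrays (4 samples). Each probe set has 1 intensity as deposited by the authors, made with MAS5 according to the submitters' processing notes. They were used as deposited, since the 2% trimmed mean of about 500.2 on every U133A array shows a common scaling. In R 4.3.3, values were transformed as log2(value + 15.8), the 10th percentile of all U133A values (13.9 for U95). Probe sets were named from the platform annotation, with symbols updated through RefSeq. Of 22283 U133A probe sets, 19071 had 1 gene and 1043 several. Genes with a mean under the 40th percentile were left out. All 12 arrays entered 1 limma 3.58.1 model of the 4 groups (eBayes with trend), leaving 8 residual degrees of freedom. Benjamini-Hochberg adjusted p-values cover 7178 genes, at a threshold of 0.05. The fit was tested on simulated data. Replicate numbers were not used as a block: deviations of same-number arrays correlated over 0.1 in all 3 pairs for 24 against 8 h and 72 against 24 h. Elsewhere not every pair was over 0.1, but all were above 0, from 0.055 to 0.264, so the numbers may pair the arrays there too. Members, lists and tests were chosen with earlier results of these data known. By rule, values of each array are given for members that passed and then those with the lowest F test p, up to 8, and up to 4 genes of each other list are named. ACACA, ME1 and the values of further probe sets were added after their values were seen. Alternatives were quantile normalization, median centring, other pseudocounts, filters and probe set rules, a replicate block, no trend, and leaving out each array. Some genes of the other lists are not reported here. Precision is limited by 3 arrays a group. The labels call the replicates biological and speak of independent experiments.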

Additional observations from a re-analysis of the deposited data

Results flagged for a closer look

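The change of TM7SF2 differed between times. Its log2 difference at 72 h against 8 h was 1.01, with signals of 1480 to 2487 at 72 h and 873 to 1072 at 8 h. SLC25A1 had a log2 difference of 0.771 at 72 h against 8 h, with signals of 1241 to 1943 at 72 h and 833 to 1087 at 8 h, and its adjusted p was 0.051 without 8 h replicate 2.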

How the results depend on the processing

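TM7SF2 passed at 72 h under every alternative run, with a log2 change between 0.86 and 0.92 across normalizations, pseudocounts, filters, probe set rules, the replicate block and the trend, and between 0.70 and 1.07 when single arrays were left out (highest adjusted p = 0.011 and 0.021). With 1 array left out, the number of the 26 genes that passed ran from 0 to 1 at 8 h, from 0 to 1 at 24 h, from 1 to 2 at 72 h and from 1 to 2 in the F test. The added genes were SQLE without 8 h replicate 3, HMGCS1 without 24 h replicate 2 and NSDHL without 72 h replicate 2. The median log2 change of the members at 72 h ran from -0.119 to -0.0605, the value nearest 0 coming without vehicle replicate 3. Each gene was followed in the comparison with vehicle that has its lowest p, TM7SF2 and SLC25A1 also at 72 against 8 h, and CYP24A1 at each time; other comparisons of a gene, such as IDI1 at 72 h, were not run. Among these, the changes that turned sign were ACAT2 at 72 h (-0.13 to 0.0514 with 1 array left out, above 0 without vehicle replicate 3) and, on averaging all probe sets of a gene, MVK at 24 h (-0.0341), LSS at 72 h (-0.264) and EBP at 8 h (0.0055), none past the test, and their cause was not tested. APOE passed at 72 h on averaging its probe sets (0.425, adjusted p = 0.047). With a replicate block the members that passed were 0 at 8 h, 0 at 24 h and 1 at 72 h, as without it, while the genes that passed over the whole array were 88, 422 and 657, against 56, 293 and 491 without it. A filter at the 60th percentile left 24 of the 26 genes, without ACACA. For 24 against 8 h and 72 against 24 h, where every same-number pair correlated over 0.1, the genes that passed with the block were 91 and 27, against 43 and 12.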
